A study of Nematostella vectensis with 9 samples.

Results

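The gene models described here are those whose level in dextran-injected control embryos lay between the levels in 2 perturbed groups of Nematostella vectensis embryos, so that the perturbations stood on opposite sides of the control. There were 59 such models among 21946 with at least 1 count, or among 12054 with a mean of at least 5 CPM (counts per 1000000 counts on the gene models of a library) in some group. They formed 2 orders: 23 models were highest with DnTCF and lowest with BMP24 KD, and 36 were highest with BMP24 KD and lowest with DnTCF. Members were chosen by their measured CPM. The highest group mean had to reach 5 CPM, the dextran mean had to differ more than 1.3-fold from each of the other means, and the 3 DnTCF libraries could not overlap the 3 BMP24 KD libraries. The direction of each member and the gap between the perturbed groups are therefore conditions of the choice, and they are given below as a description with no test.

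DnTCF embryos had been injected with RNA encoding dominant negative NvTCF. BMP24 KD embryos had received a morpholino, a synthetic antisense oligonucleotide, against NvBMP2/4. Control embryos had been injected with dextran, an inert polysaccharide, and thus with neither RNA nor morpholino. The 3 groups held 3 libraries each, called biological replicates in the series' design text. All 9 came from embryos raised at 17 °C and taken 24 h past fertilization, and were poly-A enriched and read as 50 bp single ends. The labels name neither the number of embryos per sample nor a batch.

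Nematostella is a sea anemone, a cnidarian used to study the origin of body axes and germ layers. In canonical Wnt (cWNT) signalling, β-catenin enters the nucleus and activates target genes through the DNA-binding protein TCF, and a dominant negative TCF blocks that step. In this animal the pathway is known for patterning the oral-aboral axis and the early endomesoderm. BMP2/4 is a bone morphogenetic protein, a ligand that cells secrete and that acts through receptors and Smad proteins, and it is known for setting up the directive axis, which runs across the oral-aboral one. The title of the series places the 2 pathways in antagonism. Whether the opposite displacement of the models described here has to do with that was not tested.

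The files name each model by a number of the JGI Nemve1 set. No number was found in the RefSeq table of genes for jaNemVect1.1, so the 59 members have no gene names here, and no function is given to any of them. NvBMP2/4 and NvTCF could not be found by name, and the effect of the injections on their targets was not analysed here. Libraries were of whole embryos, in which fewer cells of a type and less RNA per cell cannot be told apart.

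BMP24 KD replicate 1 stood apart from the other libraries and touches nearly every result that follows, and dextran replicate 3 stood apart to a lesser degree. Libraries held 1936858 to 5994290 counts on gene models. In BMP24 KD replicate 1 (4064416 counts) the median level over the 12054 models was 16.7 CPM, against 22.6 to 28.3 CPM in the other 8 libraries, and its factor from TMM scaling (a scaling that aligns the bulk of models) was 0.732 against 0.953 to 1.12. It was the lowest of all 9 libraries for 45.5% of the 12054 models and the highest for 18.03%. Its highest correlation with any other library was r = 0.905 on log2(CPM + 1), while each of the others reached 0.957 or more with some library. Dextran replicate 3 was at that 0.957, was the lowest of 9 for 17.1% of models, and had 87.8% of its counts on no named sequence, against 39.6% to 58.9% in the other 8 libraries. Without it the rule found 28 models with DnTCF highest and 40 with BMP24 KD highest, of which 9 and 24 were members. On the CPM scale of the gene models, mitochondrial counts ranged from 24.3 to 41.1 in DnTCF libraries, stood at 498 in BMP24 KD replicate 1 and at 278 and 60.4 in the other BMP24 KD libraries, and ranged from 8.72 to 75.6 in dextran libraries. Their part in the results was not tested.

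The rule asks how many models would be found with the library labels exchanged. All 1680 assignments of the 9 libraries to 3 groups of 3 were enumerated, the study's own included. By symmetry both orders have the same expectation: a mean of 85.2 models, a median of 51 and a range from 1 to 577. The 23 models of the order with DnTCF highest were matched or exceeded in 1318 of the 1680 assignments, and the 36 of the order with BMP24 KD highest in 1071. By the rule as set, both orders thus held fewer models than the median of all 1680 assignments. That median pools unlike assignments. It was 63 (range 3 to 577) over the 1120 with BMP24 KD replicate 1 in an outer group, as in the study's own. With that library in the middle group, in 560 assignments, it was 33. The standing against the median also varied with the setting. On the TMM scale the orders held 18 and 64 models, against a median of 65. With a fold over 1.5 in place of 1.3 the orders held 1 and 19 models, against a median of 18. With a fold over 2 they held 0 and 4 models, against a median of 2. Without BMP24 KD replicate 1 there were 15 models with DnTCF highest, against a median of 86 over 560 assignments, and 52 with BMP24 KD highest, against a median of 81.5. These are descriptions. An assignment keeps each library whole, so models that vary together in a library enter or leave the count together.

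**Figure D1:**
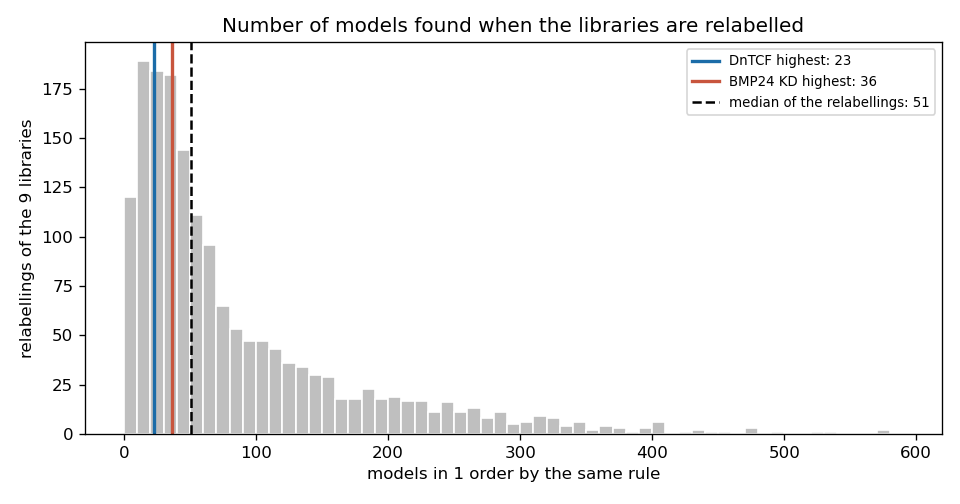
Number of models found in 1 order by the same rule (x axis) for each of the 1680 assignments of the 9 libraries to 3 groups, as a count of assignments (y axis, bins of 10 models). The 23 models with DnTCF highest and the 36 with BMP24 KD highest (vertical lines) both lie left of the median of 51 (dashed line).

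The steps of the rule narrowed the 2 orders unequally. The dextran mean lay between the others for 2153 models with DnTCF highest and 1416 with BMP24 KD highest. Of these, 35 and 141 were past 1.3-fold on both sides. Separation of the 3 DnTCF from the 3 BMP24 KD libraries then left 23 and 36.

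In the order with DnTCF highest, the displacement was small on the DnTCF side. On the BMP24 KD side it rested largely on 1 library, replicate 1, in 16 of the 23 models. Without that library these came within 1.3-fold of dextran, and the other 7 stayed more than 1.3-fold below it. The ratio of the DnTCF mean to the dextran mean ran from 1.31 to 1.86, with a median of 1.37, and was below 1.5 in all 23 models but 1, model 148195. The ratio of the BMP24 KD mean to the dextran mean ran from 0.479 to 0.744 (median 0.708). BMP24 KD replicate 1 was the lowest of all 9 libraries in 19 of the 23 models. The summed level of the 23 models was 1326, 1394 and 1552 CPM in the DnTCF libraries, 342, 844 and 953 CPM in the BMP24 KD libraries, and 970, 1017 and 1072 CPM in the dextran libraries. DnTCF libraries lay above all others in this sum. BMP24 KD replicate 3 fell short of the lowest dextran library by less than the dextran libraries differed among themselves. The members were chosen by these values, so nothing is read from the separation of the sums. The sum also weighs abundant models most: 243275, 162025 and 228311 had DnTCF means of 403, 364 and 168 CPM. Taken singly, 13 of the 23 models had dextran libraries that overlapped DnTCF.

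**Figure D2:**
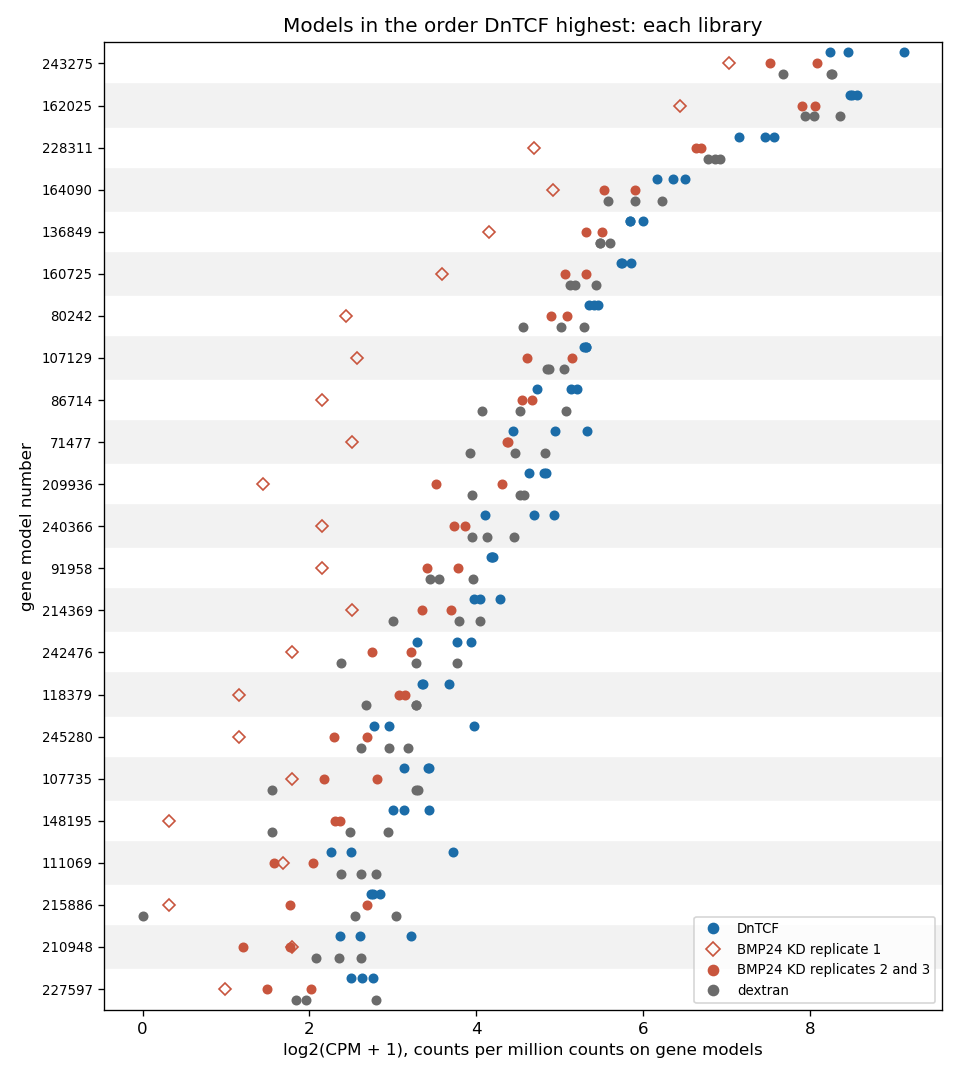
Level of each of the 23 models with DnTCF highest in each of the 9 libraries, on a log2(CPM + 1) axis, with models ordered by their DnTCF mean. Within a row the groups run from DnTCF at the top through BMP24 KD to dextran, and the open diamond is BMP24 KD replicate 1, the lowest of all 9 libraries in 19 rows.

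Model 228311, read from scaffold 13 by its name, was the only one of the 59 members in which the dextran libraries overlapped neither other group. It had 174, 188 and 141 CPM with DnTCF, 24.8, 98.1 and 103 CPM with BMP24 KD, and 115, 108 and 120 CPM with dextran. The lowest DnTCF value (141 CPM) was above the highest dextran value (120 CPM) by less than the SD of the DnTCF libraries. BMP24 KD replicate 3 came within a few CPM of dextran replicate 2. Over the 12054 models, 0.0249% had DnTCF wholly above and BMP24 KD wholly below dextran, and 0.0083% the opposite layout. The choice of members used these values, so nothing is read from the comparison with that background. Group means were 168 ± 24.3, 75.2 ± 43.7 and 114 ± 5.86 CPM (SD, n = 3 each). Without BMP24 KD replicate 1 the ratio of BMP24 KD to dextran was 0.878, against 0.658 with it, so the model no longer met the 1.3-fold condition.

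In the 2 most abundant members dextran overlapped at least 1 of the other groups. Model 243275 had 301, 351 and 556 CPM with DnTCF, 130, 183 and 270 CPM with BMP24 KD, and 204, 304 and 306 CPM with dextran. Here the dextran libraries overlapped both other groups. For model 162025 the values were 354, 376 and 362 CPM with DnTCF, 85.6, 237 and 265 CPM with BMP24 KD, and 243, 263 and 325 CPM with dextran. DnTCF was above every dextran library, while BMP24 KD replicates 2 and 3 lay in or near the dextran range.

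Among the next 3 by level, model 136849 was tight within DnTCF and dextran, with 62.9, 56.3 and 56.4 CPM with DnTCF, 16.7, 38.8 and 44.5 CPM with BMP24 KD, and 47.3, 43.6 and 43.5 CPM with dextran. Model 160725 had 52.7, 52.1 and 56.6 CPM with DnTCF, 11.1, 38.8 and 32.3 CPM with BMP24 KD, and 35.3, 42.1 and 33.9 CPM with dextran. In both, 1 or more of the BMP24 KD libraries fell inside the dextran range. Model 164090, at 70.9, 89.3 and 80.8 CPM with DnTCF, 29.3, 58.9 and 45.1 CPM with BMP24 KD and 73.6, 46.7 and 58.7 CPM with dextran, had a dextran library within the DnTCF range as well.

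The members with the widest span between the perturbed groups were less abundant. Model 148195 had 7.01, 7.74 and 9.77 CPM with DnTCF, 0.246, 3.94 and 4.17 CPM with BMP24 KD, and 6.66, 4.62 and 1.93 CPM with dextran. The lowest value rests on 1 count (exact Poisson 95% interval 0.00623 to 1.37 CPM), and dextran replicate 3 on 6 counts. Model 209936 stood at 27.5, 23.7 and 27.1 CPM with DnTCF, 1.72, 18.8 and 10.4 CPM with BMP24 KD, and 22.7, 14.4 and 21.9 CPM with dextran. DnTCF was above dextran throughout, and BMP24 KD replicate 2 lay among the dextran libraries.

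Both low BMP24 KD and low replicate spread in that group were found in models 111069 and 210948. Model 111069 had 12.2, 4.65 and 3.78 CPM with DnTCF, 2.21, 1.97 and 3.13 CPM with BMP24 KD, and 5.94, 5.13 and 4.19 CPM with dextran. All BMP24 KD libraries were below all dextran libraries, but DnTCF was raised in replicate 1 only, and DnTCF replicates 2 and 3 lay within or below the dextran range. Model 210948 had 4.17, 8.26 and 5.11 CPM with DnTCF, 2.46, 2.41 and 1.302 CPM with BMP24 KD, and 3.24, 4.11 and 5.16 CPM with dextran, on 5 to 25 counts per library. These 2 models, with 240366 and 228311, were the 4 members whose BMP24 KD libraries all lay below dextran.

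The other 4 models of wide span were 240366, 245280, 107735 and 227597, with DnTCF means of 23.5, 9.07, 9.06 and 5.20 CPM. Their BMP24 KD means were 9.76, 3.54, 3.99 and 1.96 CPM, and their dextran means 17.2, 6.67, 6.49 and 3.80 CPM. The remaining 9 members had DnTCF means between 5.88 and 41.3 CPM. In these 9 the mean of BMP24 KD replicates 2 and 3 was 0.826 to 1.00 times that of dextran, and BMP24 KD replicate 1, at 0.246 to 4.92 CPM, was below both of them.

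Dextran overlapped DnTCF in 13 of the 23 models and BMP24 KD in 19. All 3 DnTCF libraries were above all 3 dextran libraries in 10, where this held for 7.33% of the 12054 models. All 3 BMP24 KD libraries were below all 3 dextran libraries in 4, where this held for 9.96%. These layouts enter the choice of members through the group means, so nothing is read from the difference to the background.

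In the order with BMP24 KD highest, levels were lower and the spread within the BMP24 KD group was wide, as it was in the other order. The BMP24 KD mean was under 10 CPM in 22 of 36 models and reached 50 CPM in 1, model 190607. The ratio of the BMP24 KD mean to the dextran mean had a median of 1.86, and that of the DnTCF mean to the dextran mean a median of 0.631. BMP24 KD replicate 1 was the highest of all 9 libraries in 22 models, replicate 2 in 11 and replicate 3 in 2, and dextran replicate 3 in 1 (model 236044). The median coefficient of variation over libraries was 38.6% with DnTCF, 58.4% with BMP24 KD and 41.1% with dextran, against 22.8%, 44.5% and 25.3% over the 12054 models. For the 23 models with DnTCF highest it was 12.6%, 54.9% and 23.1%. The summed level of the 36 models was 169, 146 and 178 CPM in the DnTCF libraries, 682, 445 and 292 CPM in the BMP24 KD libraries, and 290, 218 and 278 CPM in the dextran libraries. All DnTCF libraries were below all dextran libraries in this sum, while BMP24 KD replicate 3 was barely above dextran replicate 1. The choice of members used these values, so nothing is read from that separation. Taken singly, 32 of the 36 models had dextran libraries that overlapped DnTCF.

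**Figure D3:**
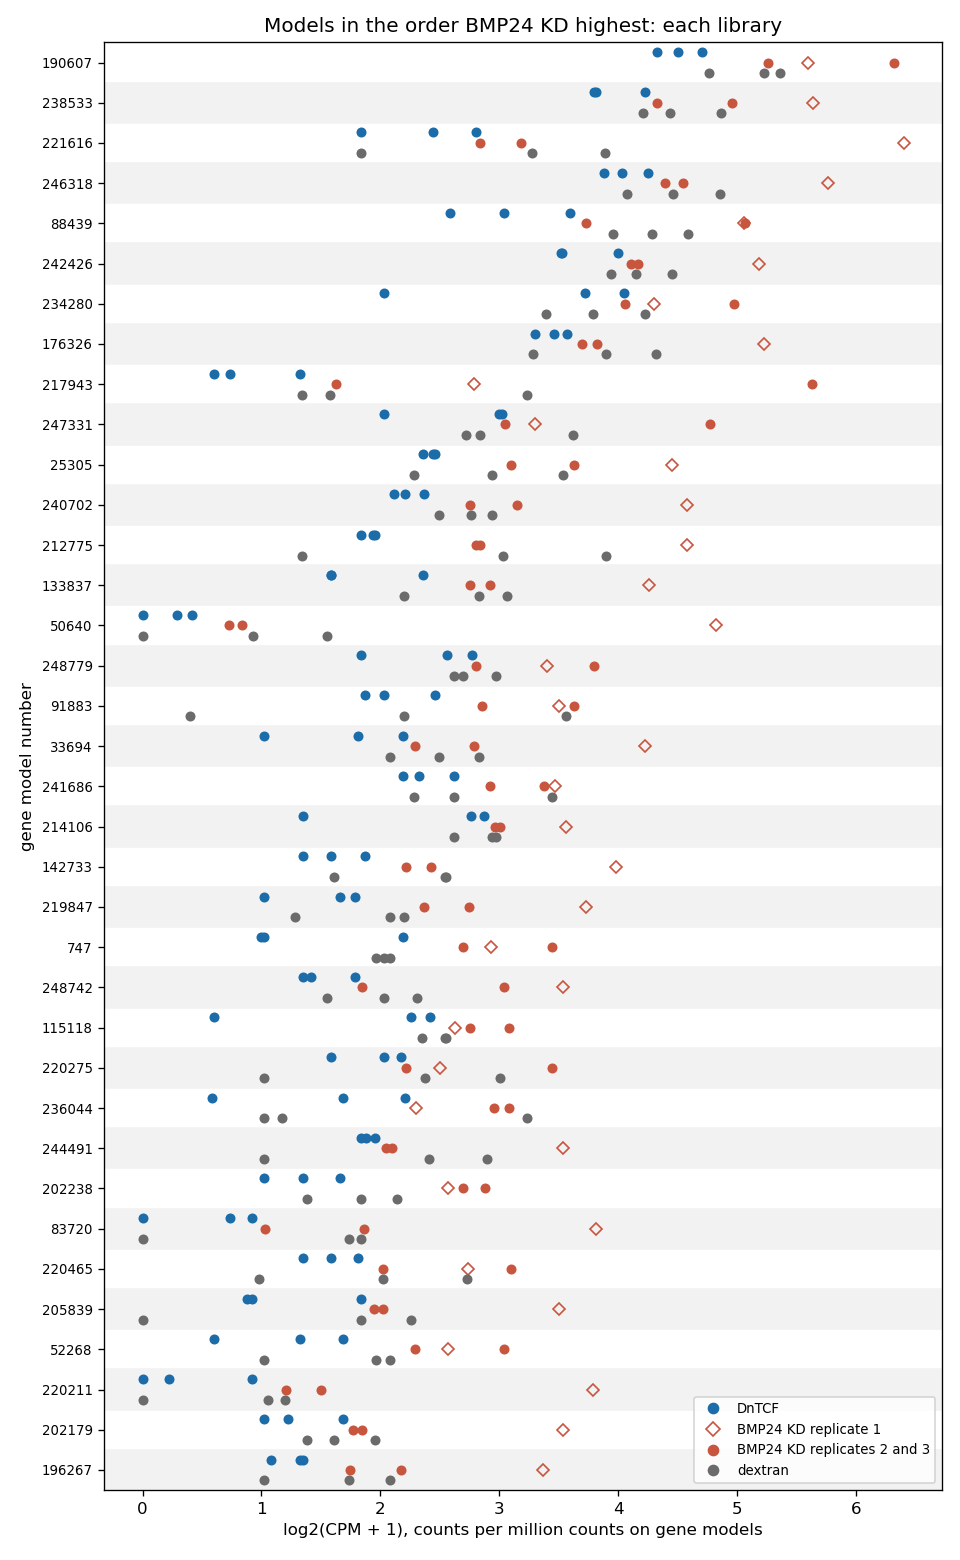
Level of each of the 36 models with BMP24 KD highest in each of the 9 libraries, on a log2(CPM + 1) axis, with models ordered by their BMP24 KD mean. Groups run within a row from DnTCF at the top through BMP24 KD to dextran, and the open diamond, BMP24 KD replicate 1, is the highest of all 9 libraries in 22 rows.

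Model 190607 was the most abundant. It had 19.0, 21.7 and 25.1 CPM with DnTCF, 47.5, 78.8 and 37.2 CPM with BMP24 KD, and 36.4, 26.2 and 40.0 CPM with dextran. DnTCF lay below every dextran library, and BMP24 KD replicate 3 lay inside the dextran range. Without BMP24 KD replicate 1 its ratio of BMP24 KD to dextran was 1.70, against 1.60 with it.

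Model 88439 had 5.005, 7.23 and 11.1 CPM with DnTCF, 32.2, 12.3 and 32.6 CPM with BMP24 KD, and 23.0, 18.5 and 14.5 CPM with dextran. DnTCF was again below every dextran library, and BMP24 KD replicate 2 was too. Without BMP24 KD replicate 1 the ratio of BMP24 KD to dextran was 1.2002, against 1.375 with it, under the 1.3-fold condition. Such separation of DnTCF from dextran was found in 4 of the 36 models (190607, 88439, 217943 and 240702), where 7.28% of the 12054 models had all 3 dextran libraries above all 3 DnTCF libraries. This layout enters the choice of members through the group means, so nothing is read from the difference.

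The other 4 of the 6 most abundant members were likewise under 1.3-fold without replicate 1 of BMP24 KD. Model 221616 had 6.01, 2.58 and 4.44 CPM with DnTCF, 83.7, 6.13 and 8.07 CPM with BMP24 KD, and 13.9, 2.57 and 8.71 CPM with dextran. The value of 83.7 CPM rests on 340 counts (exact Poisson 95% interval 75.0 to 93.0 CPM), so counting error is small beside its distance from the other libraries. Without it, BMP24 KD stood at 0.848 times dextran, on the other side of the control.

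Model 246318 had 15.3, 18.1 and 13.8 CPM with DnTCF, 53.4, 22.3 and 20.1 CPM with BMP24 KD, and 15.8, 21.04 and 28.1 CPM with dextran. Model 242426 had 10.5, 15.0 and 10.4 CPM with DnTCF, 35.4, 16.2 and 16.9 CPM with BMP24 KD, and 20.9, 14.4 and 16.8 CPM with dextran. Their ratios of BMP24 KD to dextran without replicate 1 were 0.979 and 0.956. Model 238533, at 17.7, 12.9 and 13.1 CPM with DnTCF, 49.0, 30.01 and 19.0 CPM with BMP24 KD and 17.5, 28.2 and 20.6 CPM with dextran, gave 1.11.

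The widest spans belonged to models at or near no counts in DnTCF, for which no fold is given. Model 50640 had 2, 0 and 1 counts with DnTCF, 111, 3 and 3 counts with BMP24 KD, and 5, 0 and 6 counts with dextran. In CPM, BMP24 KD replicate 1 stood at 27.3 (exact Poisson 95% interval 22.5 to 32.9) and the other 8 libraries at 0 to 1.93, where 0 counts allow up to 1.55 CPM in DnTCF replicate 2. In model 220211 the counts were 1, 0 and 4 with DnTCF, 52, 6 and 7 with BMP24 KD, and 6, 0 and 4 with dextran.

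Model 83720 had 4, 0 and 4 counts with DnTCF, 53, 12 and 4 with BMP24 KD, and 13, 5 and 0 with dextran. Replicate 1 again held most of the BMP24 KD signal. Model 217943 differed in which library was high, with 9, 1 and 3 counts with DnTCF, 24, 222 and 8 with BMP24 KD, and 11, 3 and 26 with dextran. BMP24 KD replicate 2 stood at 48.6 CPM there, against 5.90 and 2.08 CPM in the replicates beside it.

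The models 747 and 202238 were the only members of either order that met the rule whichever 1 of the 9 libraries was left out. Model 747 had 1.00, 1.03 and 3.55 CPM with DnTCF, 6.64, 9.86 and 5.47 CPM with BMP24 KD, and 3.24, 3.08 and 2.90 CPM with dextran, on 2 to 45 counts. Model 202238, singled out after its values were seen, had 2.17, 1.03 and 1.55 CPM with DnTCF, 4.92, 6.35 and 5.47 CPM with BMP24 KD, and 3.42, 2.57 and 1.61 CPM with dextran, on 2 to 29 counts. In both, all BMP24 KD libraries were above all dextran libraries, and 1 or more dextran libraries lay within the DnTCF range. All 3 BMP24 KD libraries were above all 3 dextran libraries in 6 of the 36 members, where 5.36% of the 12054 models had this layout. The others were 219847, 115118, 52268 and 220211. The choice of members used these values, so nothing is read from the difference to that background.

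Of the other named members with wide spans, model 212775 had 2.84, 2.58 and 2.89 CPM with DnTCF, 22.9, 6.13 and 5.99 CPM with BMP24 KD, and 7.20, 1.54 and 13.9 CPM with dextran. DnTCF was uniform, and dextran ran from below DnTCF to above BMP24 KD replicates 2 and 3. Model 219847 had 2.17, 1.03 and 2.44 CPM with DnTCF, 12.3, 5.69 and 4.17 CPM with BMP24 KD, and 1.44, 3.59 and 3.22 CPM with dextran. The remaining 23 models, 202238 among them, had BMP24 KD means between 5.07 and 21.6 CPM, DnTCF means between 1.39 and 10.3 CPM and dextran means between 2.11 and 13.8 CPM.

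The dependence on BMP24 KD replicate 1 was then measured for every member, an alternative added after seeing the data. In the order with DnTCF highest, BMP24 KD replicates 2 and 3 alone averaged 0.445 to 1.00 times the dextran mean (median 0.899, against 0.708 with all 3 libraries). Of the 23 models, 7 stayed more than 1.3-fold below dextran, 16 came within 1.3-fold of it, and 2 of those 16 had a mean above that of dextran. The 7 were 209936, 240366, 245280, 107735, 111069, 210948 and 227597. In the order with BMP24 KD highest the median ratio was 1.34, against 1.86 with all 3 libraries. Of the 36 models, 19 stayed more than 1.3-fold above dextran, 16 came within 1.3-fold, and 1, model 50640, fell more than 1.3-fold below on 3 and 3 counts.

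**Figure D4:**
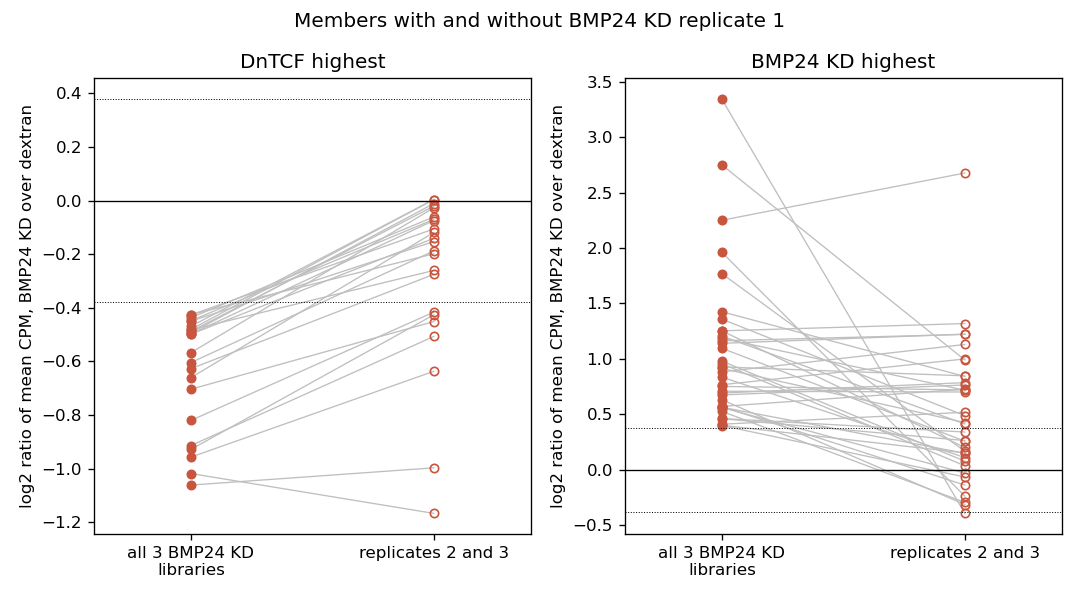
Ratio of the BMP24 KD mean to the dextran mean on a log2 scale for each member, with all 3 BMP24 KD libraries (filled points) and with replicates 2 and 3 only (open points). Lines join the same model, the solid line marks equal means, dotted lines mark 1.3-fold, and the 2 panels have different scales. In the left panel 16 of 23 open points lie within 1.3-fold of dextran, and in the right panel 16 of 36.

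Under the full rule without BMP24 KD replicate 1, 7 of the 23 and 14 of the 36 members still qualified. A further 8 and 38 models that are not members came in. The share of models for which that library was the lowest of 9 was 82.6% among the 23, against 45.5% over all 12054. The share for which it was the highest was 61.1% among the 36, against 18.03%. The members' shares follow in part from a choice made on these same libraries, and how much of the excess that choice accounts for was not tested.

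**Figure D5:**
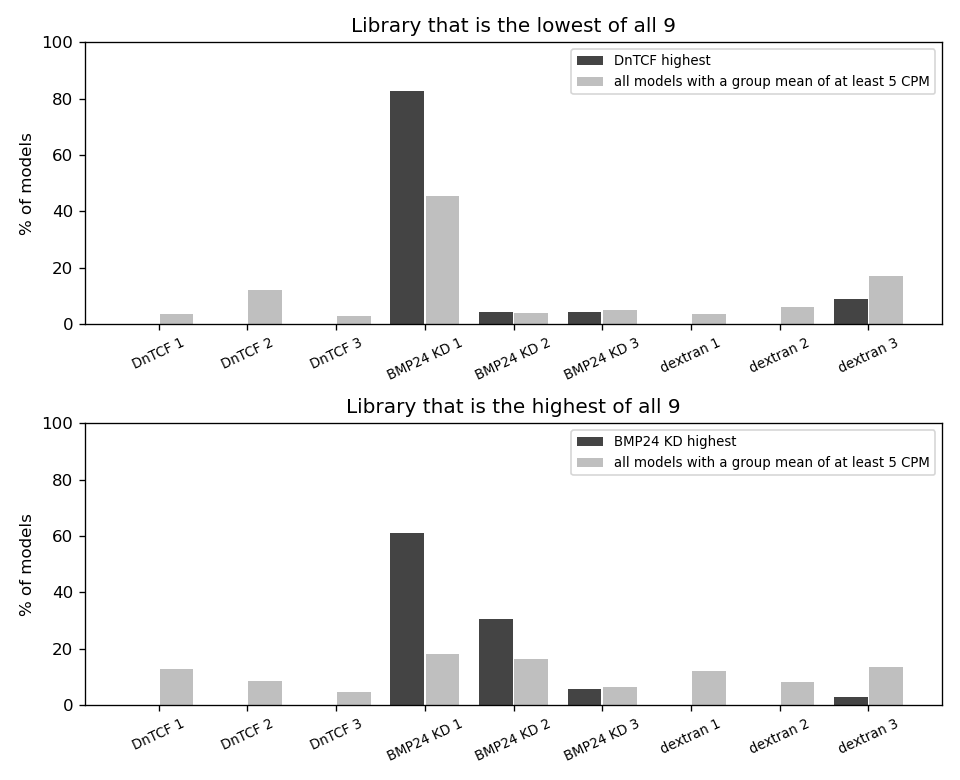
Share of models (y axis, %) for which each library (x axis) was the lowest of all 9 (upper panel, 23 models with DnTCF highest, dark bars) or the highest of all 9 (lower panel, 36 models with BMP24 KD highest, dark bars), beside the share over the 12054 models with a group mean of at least 5 CPM (light bars). BMP24 KD replicate 1 takes 82.6% in the upper and 61.1% in the lower panel.

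Across all models, edgeR's quasi-likelihood test with Benjamini-Hochberg adjustment called 0 of 13559 models in each of the 3 comparisons (0.0% in each), and thus no member. The lowest adjusted p of a member for DnTCF against BMP24 KD was 0.911. At an unadjusted p under 0.05 that comparison held 4.68% of all tested models, and 14 of 23 members with DnTCF highest and 27 of 34 tested members with BMP24 KD highest. The members were chosen for this difference, so nothing is read from those counts. Models 50640 and 220211 were not tested, as they did not pass the filter on low counts.

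The choice of members also fixed the direction of each difference from dextran and set its smallest fold, so the following counts are a description from which nothing is read. For DnTCF against dextran the unadjusted p was under 0.05 in 0 of 23 and 1 of 34 members, where 4.88% of all tested models were. For BMP24 KD against dextran it was under 0.05 in 0 of 23 and 5 of 34, where 11.8% were. These 2 comparisons share the dextran libraries. DESeq2's Wald test called 0.0297% of models for DnTCF against BMP24 KD, 0.675% for DnTCF against dextran and 1.69% for BMP24 KD against dextran at an adjusted p under 0.05, and no member in any of them. Limma-voom called no model in any comparison.

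On the TMM scale of that fit, the median log2 difference of DnTCF minus BMP24 KD was 0.95 over the 23 members and -1.89 over the 34, against -0.03 over all tested models. The members were chosen for this difference, so nothing is read from its distance to the median of all models. Model 228311 differed by 1.11 (SE 0.38, edgeR adjusted p = 0.911), model 190607 by -1.45 (SE 0.35) and model 202238 by -1.91 (SE 0.52), at the same adjusted p. Without BMP24 KD replicate 1 the medians were 0.67 and -1.09. Against dextran, model 228311 differed by 0.54 with DnTCF (SE 0.38, edgeR unadjusted p = 0.18). With BMP24 KD it differed by -0.57 (SE 0.38, edgeR unadjusted p = 0.16). These differences from dextran were conditions of the choice too, and are given as a description.

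The thresholds cut through a continuous range. Just inside the 1.3-fold limit stood models 136849 and 107129 with DnTCF highest, with a smaller ratio of 1.306 and 1.313, and just outside 123513 and 242633, both at 1.294. With BMP24 KD highest, models 234280 and 248779 were inside at 1.301 and 1.312, and 238931 and 206508 outside at 1.296 each. At the level of 5 CPM, models 227597 (5.20 CPM) and 210948 (5.85 CPM) were inside and 129991 (4.13 CPM) and 45511 (4.01 CPM) outside with DnTCF highest. In the other order 196267 (5.07 CPM) and 202179 (5.20 CPM) were inside, and 96584 (4.83 CPM) and 89768 (4.74 CPM) outside.

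The names of the models carry a scaffold number, which the rule did not use. The 59 members lay on 50 scaffolds, 6 of which held more than 1. Scaffold 33 held 4: model 71477 with DnTCF highest, and 202179, 202238 and 240702 with BMP24 KD highest, among 80 models there with a mean of at least 5 CPM in some group. Scaffold 28 held 240366 and 91958 with DnTCF highest and 91883 with BMP24 KD highest, among 61 models. Scaffold 153 held 2 members with DnTCF highest (118379 and 245280, of 36 models), scaffolds 18 and 63 held 2 with BMP24 KD highest each (of 76 and 54 models), and scaffold 130 held 1 of each order (of 27 models). Distances between them, and whether any share reads, were not analysed here. By prediction class, 12 of the 36 models with BMP24 KD highest (33.3%) and 4 of the 23 with DnTCF highest (17.4%) were plain fgenesh1_pg predictions, against 17.4% of the 12054 models. The e_gw class held 6 of the 36 (16.7%) and 9 of the 23 (39.1%), against 25.5%. Classes were not compared at matched levels.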

How the data were processed

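Raw read counts per reference sequence were deposited, 1 table per library. FastQC and Bowtie2 2.2.0 are named in the submitters' processing notes. How reads were counted, with which strand setting, and where reads fitting several models went is not given in the sources used here. Near-identical copies could therefore split reads. Sequences absent from a table (the lowest listed count was 1) were entered as 0. The row with no reference name, 39.6% to 87.8% of a library, and the 18S, 28S and mitochondrial rows stayed out of totals and tests. No 2 libraries held identical counts.

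CPM was computed as count over the sum on Nemve1 models; each value in CPM is on that scale unless TMM is named. Intervals are exact Poisson and cover counting error only, as does the upper limit for 0 counts (3 counts of the total). All 3 comparisons came from 1 fit in edgeR 4.0.16 (R 4.3.3): filterByExpr, TMM, glmQLFit and glmQLFTest on all 9 libraries, with Benjamini-Hochberg adjustment over 13559 models and calls at an adjusted p under 0.05. SEs were derived from the F statistic. As a check of the code, the fit was run on simulated counts with a single dispersion, large changes in DnTCF only and no divergent library. Small changes, and libraries that stand apart as here, were not simulated. Alternatives were DESeq2 1.42.0, limma 3.58.1, other scalings, thresholds and filters, 6-library fits, a replicate block and leaving out libraries. Named were, per order, the 8 members of widest span between group means (each raised to at least 0.5 CPM), the 6 most abundant, those whose dextran libraries overlapped neither other group, and those beside each threshold. The members and lists were chosen with earlier results of these data known. Lists defined by gene names were not tested, since no model had a name. Scaffolds were read from the model names (21946 of 21946).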

Additional observations from a re-analysis of the deposited data

Results flagged for a closer look

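Model 228311 stood out because each DnTCF library was above every dextran library and each BMP24 KD library below every one. Of the 12054 models, 3 had this layout (0.0249%), and model 228311 was the only member among them. Without BMP24 KD replicate 1 its ratio of BMP24 KD to dextran was 0.878, so it no longer met the 1.3-fold condition. The log2 difference of DnTCF minus BMP24 KD was 1.11 (edgeR adjusted p = 0.911), and it was chosen for that difference. A difference between the 2 displacements from dextran was not tested beyond that. Ribosomal RNA, which lies outside the gene models, was above the dextran level in every BMP24 KD library. Per 1000000 counts on gene models, 28S rRNA stood at 6318 ± 1960 with DnTCF (4384 to 8302), 8211 ± 2748 with BMP24 KD (5076 to 10203) and 3549 ± 1213 with dextran (2530 to 4891; SD, n = 3 each). The values for 18S rRNA were 3188 ± 1289 with DnTCF (1798 to 4343), 6049 ± 2658 with BMP24 KD (3483 to 8791) and 1995 ± 942 with dextran (1237 to 3049). DnTCF replicates 2 and 3 were also above every dextran library for both sequences, and DnTCF replicate 1 lay inside the dextran range. Its part in the members' levels was not tested.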

How the results depend on the processing

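The number of models with DnTCF highest (23) was 18 with TMM scaling, 13 with DESeq2 size factors and 16 with upper-quartile scaling, and the number with BMP24 KD highest (36) was 64, 68 and 59. Under TMM the relabelling median was 65. Asking for a highest group mean of at least 1 CPM gave 55 and 112 models, and of at least 10 CPM 16 and 14. Folds over 1.5 gave 1 and 19, folds over 2 gave 0 and 4, medians in place of means 12 and 17, and dextran overlapping neither group 1 and 0. Leaving out 1 library gave 15 to 109 and 33 to 124 models. The 15 came without BMP24 KD replicate 1 and the 109 without BMP24 KD replicate 2, while the 33 came without dextran replicate 1 and the 124 without DnTCF replicate 1. The order with DnTCF highest also moved over 1.5 times without DnTCF replicate 1 (40), DnTCF replicate 2 (85) and BMP24 KD replicate 3 (99). The other order did so without DnTCF replicate 3 (71), BMP24 KD replicate 2 (62) and BMP24 KD replicate 3 (115). With fewer libraries the condition of no overlap is easier to meet. Without both divergent libraries, BMP24 KD replicate 1 and dextran replicate 3, the orders held 19 and 58.

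Calls over all models, 0 in each comparison by edgeR, were 4 (DnTCF against BMP24 KD), 91 (DnTCF against dextran) and 228 (BMP24 KD against dextran) by DESeq2. With no filter they were 0, 18 and 6, and without both divergent libraries 0, 42 and 20. Leaving out 1 library gave 0 to 0, 0 to 8 and 0 to 10 calls, with 3 for DnTCF against dextran without BMP24 KD replicate 1 and 8 without dextran replicate 1, and 10 for BMP24 KD against dextran without dextran replicate 1. None of these calls by edgeR, DESeq2 or limma-voom was a member. With the replicate block the calls stayed at 0, with 401, 555 and 1383 models at an unadjusted p under 0.05 against 635, 662 and 1599 without it. Same-numbered libraries correlated at -0.22 to 0.34 in their deviations from the group means, so the numbers were not taken to pair samples.

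Of 1192 values of the named members' log2 differences under alternatives, 9 changed sign and none passed the test. For BMP24 KD minus dextran, leaving out 1 library gave -0.33 to 2.86 for model 221616, -0.10 to 1.12 for 246318, -0.13 to 0.94 for 242426 and -0.44 to 1.70 for 212775, the lowest in each case without BMP24 KD replicate 1. Without both divergent libraries 221616 stood at -0.29 and 242426 at -0.10. Model 83720 ran from -0.38 without both divergent libraries to 2.66 without BMP24 KD replicate 3. For DnTCF minus dextran, 245280 ran from -0.10 (without DnTCF replicate 3) to 0.71 and 111069 from -0.23 (without DnTCF replicate 1) to 0.71. In 22 of the 36 models with BMP24 KD highest every group mean was under 10 CPM, which limits the precision of a single value.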
